A study of Coregonus lavaretus with 13 samples.

Results

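The livers of whitefish taken 2 days after a second injection of microcystin-LR (MC-LR) were set directly against livers taken 1 day after a first injection. The comparison covers the putative lncRNAs that the study listed as changed against the vehicle on both days: 483 of the 4729 Trinity contigs listed on any day were chosen because their ID stood in the list of day 1 (1100 contigs) and in the list of day 9 (2543 contigs). All fish were juvenile Coregonus lavaretus of the Rutki strain. The 3 MC_9d fish had received MC-LR into the peritoneal cavity at 100 μg for each kg of fish and the same dose again after 7 days, the 3 MC_1d fish had received 1 such dose, and the 4 PBS_1d fish had received only the vehicle, phosphate buffered saline, 1 day before sampling. Each liver is 1 library from a separate animal. The day of sampling and the number of doses differ together between MC_9d and MC_1d and cannot be told apart. No vehicle group of day 9 is among these livers. The study used separate tanks for different groups, but whether MC_9d and MC_1d fish shared a tank is not stated.

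MC-LR is a cyclic peptide made by cyanobacteria. It is taken up into hepatocytes by organic anion transporters, where it inhibits protein phosphatases, disturbs the cytoskeleton and injures the liver. Long non-coding RNAs are transcripts without a recognised protein-coding frame, and many of them are expressed at low levels and in a narrow set of tissues. The contigs are known here by their assembly IDs alone, and no function is given to any of them. In an ID such as DN95807_c3_g1_i1, the part before g names a component, that is, contigs assembled from one cluster of overlapping reads, and g and i name a gene and an isoform as the assembler saw them. The expressed tissue could not be checked against liver markers because the lists used here hold no named gene.

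Values are normalized counts, that is, reads divided by the size factor of the library, with both days brought to one scale by the PBS fish that they share. In the mean normalized count 119 contigs were above PBS on both days and are called raised, 360 were below PBS on both days and are called lowered, and 4 were above PBS on one day and below it on the other. These classes rest on the same fish and are descriptions. The 483 contigs held 195764 to 405309 reads per MC_9d liver, 83391 to 175782 per MC_1d liver and 79514 to 93759 per PBS liver. These sums are parts of the libraries and not their depth. The 119 raised contigs had 178623 to 397100 of the reads in MC_9d livers, 74658 to 168010 in MC_1d livers and 6409 to 8336 in PBS livers, while the 360 lowered contigs had 5597 to 13732 in MC_9d livers, 4597 to 10662 in MC_1d livers and 72183 to 84289 in PBS livers. In whole liver, fewer cells of a type and less RNA per cell cannot be told apart.

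Of the 483 contigs, 424 had at least 10 reads over the 6 MC-LR livers and were tested, and all 59 others were lowered contigs. In edgeR's quasi-likelihood test with Benjamini-Hochberg adjustment over the 424, 16 contigs were higher in MC_9d than in MC_1d livers (3.77% of those tested) and 14 were lower (3.30%), 30 in all (7.08%), at an adjusted p under 0.05. The 30 include the 4 contigs above PBS on one day and below it on the other, of which 1 was higher and 3 were lower. Their class fixes the sign of the difference, so these calls are no separate evidence. All tested contigs had been selected against PBS in these same fish. That selection can favour a small spread within a group, so the adjusted p of all 30 calls may be too small. Most of the calls were raised contigs. Of the 119 raised contigs, 14 were higher and 9 were lower, against 1 higher and 2 lower among the 301 lowered contigs tested. The median of the group means was 162 normalized counts in MC_9d and 156 in MC_1d livers for raised contigs. For lowered ones it was 4.85 and 4.66, and the part of these low counts in the contrast was not tested. The median log2 fold change, MC_9d over MC_1d, was 0.07 for the raised contigs and -0.04 for the lowered ones that were tested, beside -0.01 for all tested contigs. The middle 50% of the raised contigs ran from -0.56 to 1.28 in log2 fold change. A log2 fold change beyond 1 in size was found in 55 of the 119 raised contigs (46.2%), against 51.7% of all tested contigs and 53.2% of the lowered ones, and 63 of the 119 raised contigs were positive and 56 negative. With the size factors used, the median raised contig thus stood at about the same level after the second dose as after the first. The median log2 fold change of raised contigs was 0.93 with clean reads as scaling, and -0.15 to 0.66 in fits without 1 fish. The direction of these fold changes depends on the scaling: scaled by the clean reads of each library, the median over all tested contigs moved up by 0.86 in log2 and the split became 29 higher and 8 lower, 78.4% higher against 53.3%.

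**Figure D1:**
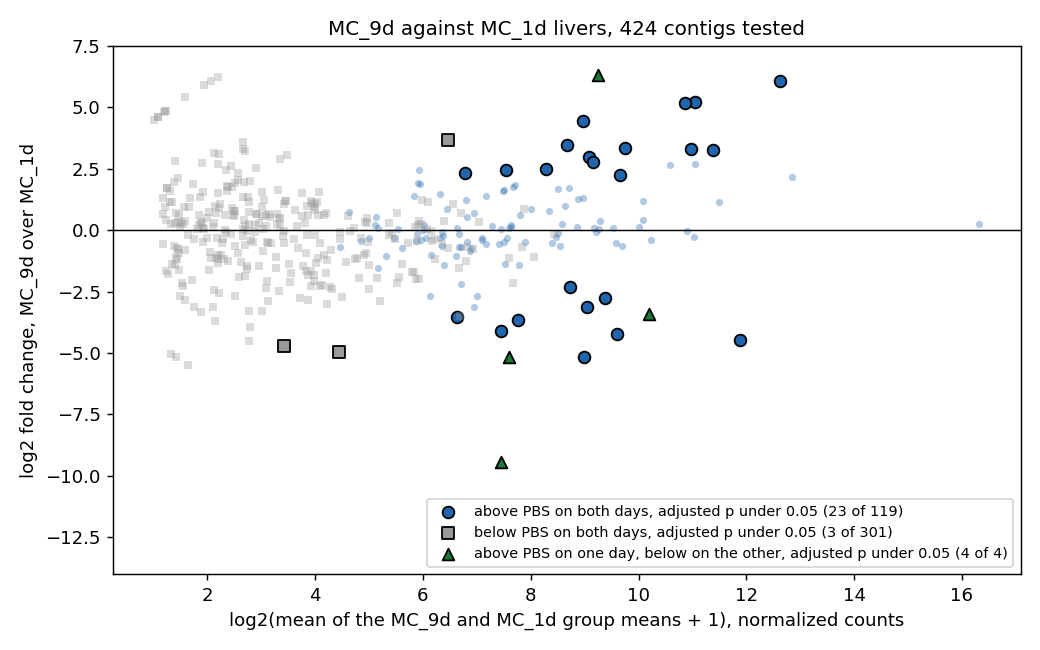
Difference and level of the 424 tested contigs. Each point is a contig, with the log2 mean level of both MC-LR groups on the x axis, in normalized counts plus 1, and the log2 fold change of MC_9d over MC_1d livers on the y axis, and outlined points have an adjusted p under 0.05. Outlined raised contigs lie on both sides of 0, while lowered contigs with log2 fold changes of similar size sit at low levels and few of them are outlined.

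The fish of 1 day were not alike, and 1 liver of each group stood apart from the other two. The median raised contig had 164, 219 and 91.7 normalized counts in MC_9d livers 1, 2 and 3, against 103, 121 and 227 in MC_1d livers 1, 2 and 3, and 7.84 to 11.7 in PBS livers. The third MC_9d liver was thus the lowest of the 6 and the third MC_1d liver the highest. The median lowered contig had 2.62, 1.27 and 7.69 normalized counts in MC_9d livers, against 4.15, 6.71 and 0 in MC_1d livers, and 79.1 to 102 in PBS livers. Of the 360 lowered contigs, 98, 147 and 40 had no read in MC_9d livers 1, 2 and 3, against 85, 60 and 185 in MC_1d livers and 0 to 1 in PBS livers. MC_9d_3 had the fewest silent contigs and MC_1d_3 the most. The MC_1d_3 library also had the smallest size factor of the 6, below the 0.964 and 1.19 of the other MC_1d livers and the 1.53 to 1.69 of MC_9d livers. The size factors did not follow the clean reads of the libraries. These were 70023698, 64426735 and 52971161 in MC_1d livers 1, 2 and 3, and 51942679 to 56326270 in MC_9d livers. A contig without a read stays at 0 under any scaling. The part of depth in the number of silent contigs was not tested. Over all 483 contigs the median absolute log2 difference was 0.65 between MC_9d livers 1 and 2, 1.13 and 1.28 between MC_9d_3 and these, 0.73 between MC_1d livers 1 and 2, and 1.03 and 1.13 between MC_1d_3 and these. Between a MC_9d and a MC_1d liver it was 0.99 to 1.47, so the difference between days was about as large as the differences that MC_9d_3 and MC_1d_3 showed from their own groups. Between PBS livers the same measure was 0.49 to 0.69.

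**Figure D2:**
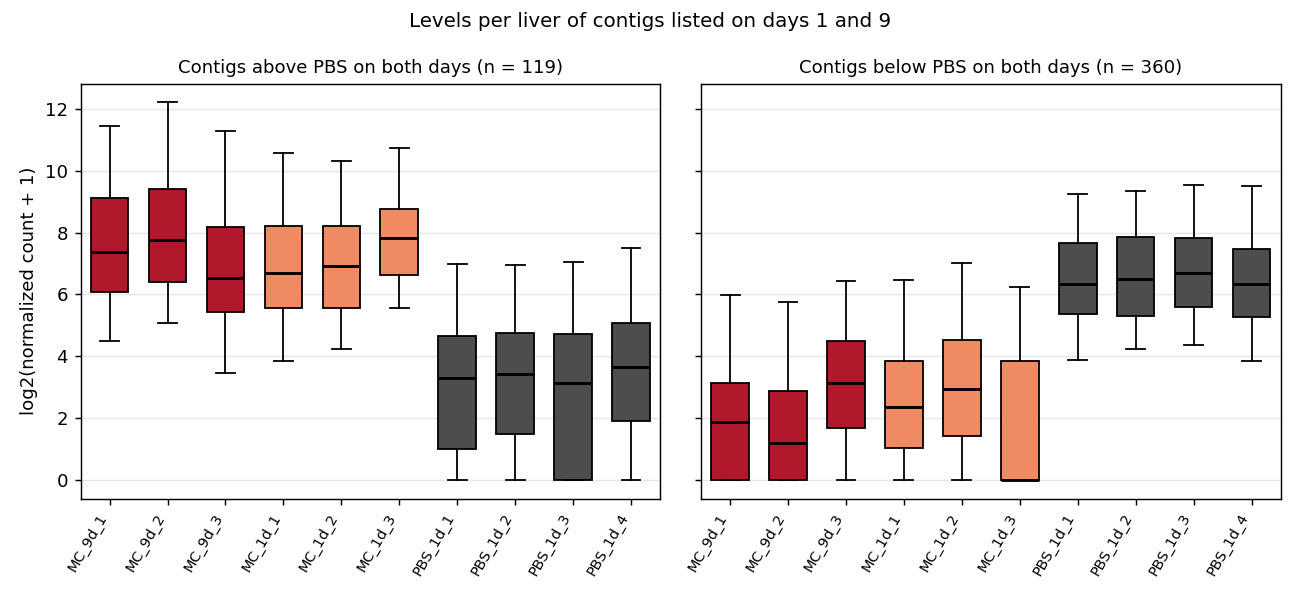
Levels of the raised (left) and lowered (right) contigs in each MC_9d, MC_1d and PBS_1d liver, as log2 of the normalized count plus 1. Boxes span the middle 50% of contigs, the line is the median and whiskers reach the 5th and 95th percentiles. Among MC-LR livers, MC_9d_3 has the lowest median of raised contigs (91.7 normalized counts) and the highest of lowered ones (7.69), and MC_1d_3 the highest of raised contigs (227) and the lowest of lowered ones (0).

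The log2 levels of the raised contigs were more closely correlated within a day than between days. Across the 119 raised contigs, Pearson's r of the log2 levels was 0.89 to 0.93 between MC_9d livers, 0.79 to 0.88 between MC_1d livers and 0.45 to 0.63 between a MC_9d and a MC_1d liver, and these ranges did not overlap. Across the 360 lowered contigs r was 0.68 to 0.81 within MC_9d, 0.78 to 0.83 within MC_1d and 0.59 to 0.75 between the days, and these ranges did overlap. Between a MC-LR and a PBS liver r was 0.49 to 0.78 across the raised contigs and 0.43 to 0.77 across the lowered ones. These ranges overlapped those between the days. These correlations are across contigs, which are not independent replicates, and the livers share 1 assembly and the differences in length between contigs. The contigs were listed because these same fish differed from PBS on each day. That selection can favour contigs on which the livers of a day agree, and it sets no such limit between days. The pairs also reuse the same livers, and the difference in r was not tested.

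Summed over the 119 raised contigs, MC_9d livers held 260072, 158201 and 105705 normalized counts, against 77453, 78765 and 202788 in MC_1d livers. The groups overlapped, and the means of 174659 ± 78488 in MC_9d and 119669 ± 71987 in MC_1d livers (SD, n = 3 each) differed by less than the spread between fish (exact permutation test, two-sided, p = 0.5). A single contig, DN78778_c0_g1_i16, made up 32.2% to 67.8% of the sum in MC_9d livers and 42.1% to 72.9% in MC_1d livers. It had 176283, 57813 and 33986 normalized counts in MC_9d livers, against 32645, 42614 and 147767 in MC_1d livers and 3291 ± 546 in PBS livers (SD, n = 4). One liver of each day was far above the other two of its group, and the log2 fold change was 0.27 (SE 1.08, adjusted p = 0.96). Without this contig, the raised sums were 85299 ± 14394 in MC_9d and 45327 ± 9446 in MC_1d livers (SD, n = 3 each), 1.88-fold higher in MC_9d livers with no overlap between the groups. The exact two-sided permutation test gave p = 0.1, which is the smallest that 3 fish against 3 can give. The test planned was that of the full sums. Abundant contigs weigh heavily in the reduced sum as well. DN114726_c8_g1_i2 had means of 12376 in MC_9d and 185 in MC_1d livers, and DN80306_c0_g1_i1 had 12042 and 2672. The median raised contig per liver had 158 ± 63.7 normalized counts in MC_9d and 150 ± 67.1 in MC_1d livers (SD, n = 3 each). Lowered contigs summed to 5321 ± 2456 normalized counts in MC_9d and 7100 ± 1714 in MC_1d livers, a difference within the spread of the fish (exact permutation test, two-sided, p = 0.4), beside 72756 ± 6622 in PBS livers (SD, n = 4). In reads before scaling, the lowered contigs had 6531, 5597 and 13732 in MC_9d livers, against 6566, 10662 and 4597 in MC_1d livers. All these sums depend on the size factors. With clean reads as scaling, the median log2 fold change of all tested contigs moved up by 0.86.

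The 14 raised contigs that were higher in MC_9d livers had reads in every MC-LR liver and in at least 1 PBS liver each. Their group means had a median of 1170 normalized counts in MC_9d, 116 in MC_1d and 14.6 in PBS livers, and their log2 fold changes, MC_9d over MC_1d, ran from 2.26 to 6.06. DN111751_c3_g4_i1 had 2404, 6294 and 2126 normalized counts in MC_9d livers, against 75.7, 87.2 and 134 in MC_1d livers and 14.5 ± 8.88 in PBS livers (SD, n = 4). Every MC_9d liver lay far above every MC_1d liver, and the log2 fold change was 5.19 (SE 0.81, adjusted p = 0.000839). This was the only one of the 14 that was called without each of the 6 fish in turn. DN114726_c8_g1_i2, also among the 5 most abundant contigs, had 8037, 12943 and 16148 normalized counts in MC_9d livers, against 121, 395 and 38.6 in MC_1d livers and 16.4 ± 7.12 in PBS livers (SD, n = 4). It was the only one of the 5 most abundant contigs that was higher, with a log2 fold change of 6.06 (SE 1.05, adjusted p = 0.00153). DN93812_c1_g1_i1 had 530, 711 and 1004 normalized counts in MC_9d livers, against 45.6, 62.1 and 96.6 in MC_1d livers, and a log2 fold change of 3.46 (SE 0.66, adjusted p = 0.00338). DN106341_c2_g13_i1 had 10026, 1606 and 704 normalized counts in MC_9d livers, against 49.8, 115 and 170 in MC_1d livers, with a log2 fold change of 5.20 (SE 1.04, adjusted p = 0.00434). Here the first MC_9d liver was far above the other MC_9d livers, but the lowest of them was still above every MC_1d liver.

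DN92637_c2_g3_i1 had the widest spread among MC_9d livers of all contigs with a mean of at least 100 normalized counts in that group, 91.1-fold between the highest and the lowest. It had 961, 1887 and 20.7 normalized counts in MC_9d livers, against 23.9, 10.1 and 100 in MC_1d livers. The third MC_9d liver lay below the highest MC_1d liver, and the contig was called higher with a log2 fold change of 4.43 (SE 1.19, adjusted p = 0.0307). The other 13 of the 14 had groups of fish that did not overlap. Over all 483 contigs, every MC_9d liver was above every MC_1d liver in 54 (11.2%) and below every one in 54 (11.2%), 22.4% in either direction, so the share of contigs without overlap was equal in both directions. Among raised contigs 24 of 119 were above and 14 below, and among lowered ones 29 of 360 were above and 37 below.

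The 9 raised contigs that were lower in MC_9d livers had another profile. Their group means had a median of 78.3 normalized counts in MC_9d, 949 in MC_1d and 0.936 in PBS livers. In PBS livers 6 of the 9 had means of 0 to 2.83, and the other 3 had 7.60 (DN93767_c4_g1_i2), 15.8 (DN95807_c3_g4_i2) and 21.9 (DN95807_c3_g3_i3). DN93767_c4_g1_i2 had 57.0, 107 and 70.4 normalized counts in MC_9d livers, against 2197, 1070 and 1171 in MC_1d livers and 7.60 ± 3.49 in PBS livers (SD, n = 4), a log2 fold change of -4.24 (SE 0.70, adjusted p = 0.00136). Of these 9 contigs, 6 came from 2 assembly components, so the 9 belong to 5 components, whereas the 14 higher contigs came from 14 components. This grouping was looked at after the calls were seen. No component among the members held calls in both directions.

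Component DN91051_c3 held 2 of them. DN91051_c3_g2_i1, one of the 5 most abundant contigs, had 368, 469 and 144 normalized counts in MC_9d livers, against 10784, 6538 and 4472 in MC_1d livers and 1.79 to 4.88 in PBS livers. DN91051_c3_g1_i1 had 41.3, 36.2 and 4.14 normalized counts in MC_9d livers, against 1436, 966 and 564 in MC_1d livers. Both contigs were lowest in the third MC_9d liver of the MC_9d group, as was the median raised contig. Both had the first MC_1d liver at the top and the third at the bottom of their group. Their log2 fold changes were -4.47 (SE 0.84, adjusted p = 0.00319) and -5.18 (SE 0.87, adjusted p = 0.0014). Both were called without each of the 6 fish in turn.

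Component DN95807_c3 held 4 contigs, each named by the assembler as a gene of its own, and all 4 were lower in MC_9d livers. DN95807_c3_g1_i1 had 21.6, 28.6 and 7.69 normalized counts in MC_9d livers, against 666, 175 and 145 in MC_1d livers, with a log2 fold change of -4.08 (SE 0.80, adjusted p = 0.00434). The other 3, named because they share this component, had log2 fold changes of -3.66 (g2_i1, SE 0.73, adjusted p = 0.00434), -2.78 (g4_i2, SE 0.66, adjusted p = 0.0143) and -2.33 (g3_i3, SE 0.66, adjusted p = 0.0419). Of the 6 fits without a fish, all 6 called g2_i1, 5 called g1_i1, 3 called g4_i2 and 2 called g3_i3, and with clean reads as scaling g4_i2 and g3_i3 were not called. In every one of the 4 the third MC_9d liver was the lowest and the second the highest of the MC_9d livers. The third MC_1d liver was the lowest of its group in all 4. The order of the MC_9d livers was also that of the median raised contig, with 164, 219 and 91.7 normalized counts. Among all 9 raised contigs that were lower, MC_9d_2 was the highest of its group in 8 and MC_1d_3 the lowest in 7. The 4 contigs differed in the PBS livers, where g1_i1 and g2_i1 had 0 to 1.79 normalized counts while g3_i3 and g4_i2 had 7.81 to 27.0. Contigs of one component can share reads and are not counted as independent changes.

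**Figure D3:**
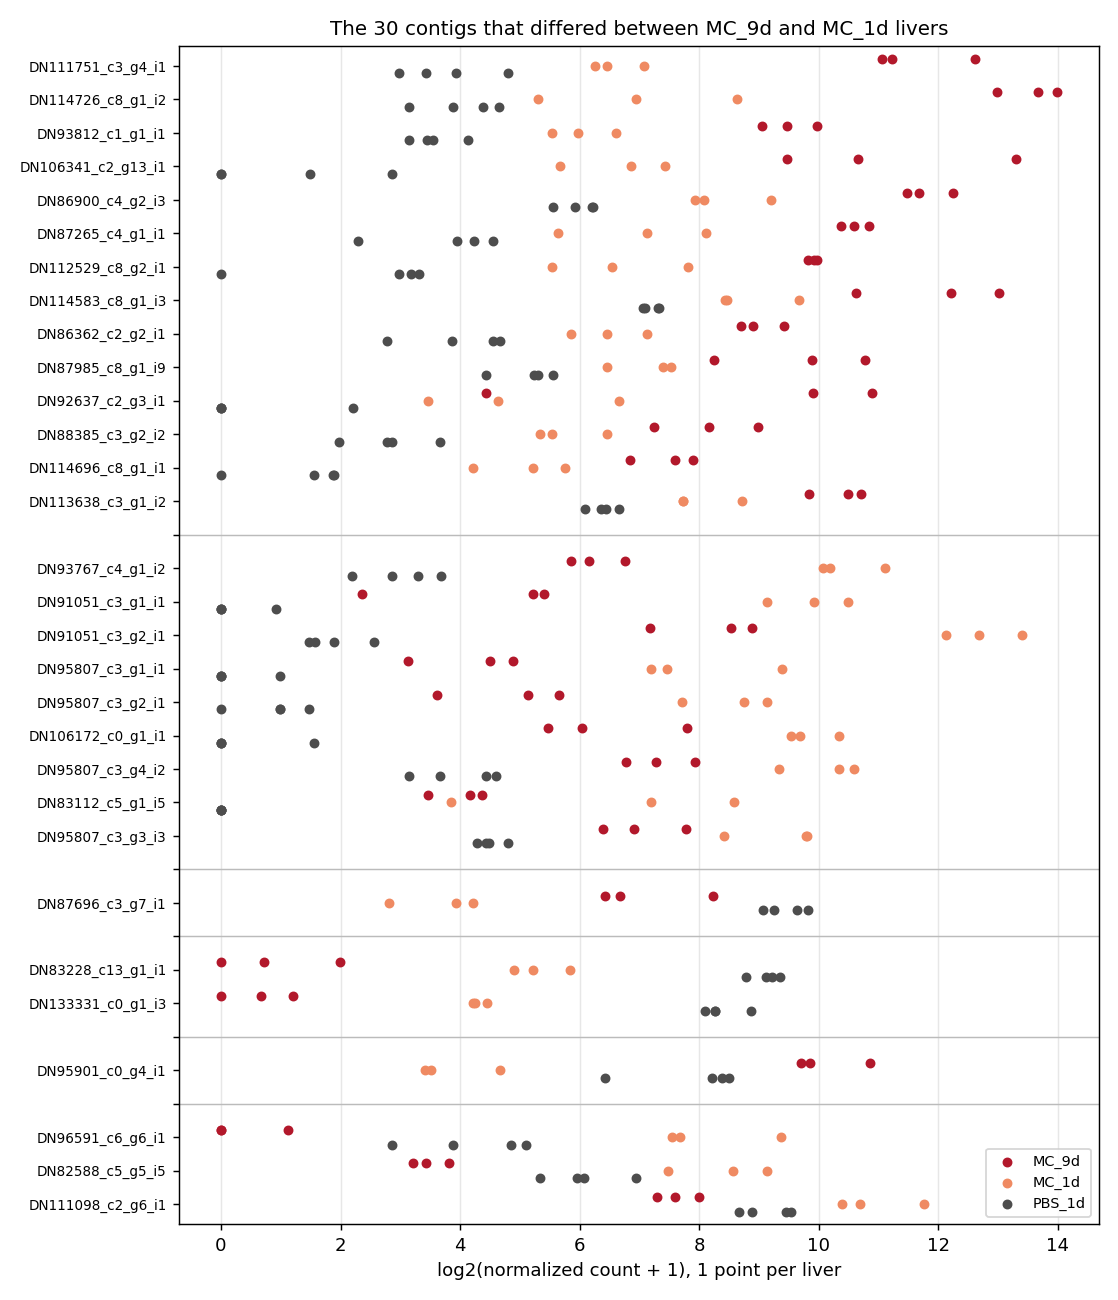
The 30 contigs with an adjusted p under 0.05 between MC_9d and MC_1d livers, 1 row each, with 1 point per MC_9d, MC_1d and PBS_1d liver on a log2 scale of the normalized count plus 1. From the top, blocks hold the 14 raised contigs that were higher, the 9 raised contigs that were lower, 1 lowered contig that was higher, 2 lowered contigs that were lower, and the contigs above PBS on one day and below it on the other. Groups of MC_9d and MC_1d points overlap only in DN92637_c2_g3_i1 and DN83112_c5_g1_i5.

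Few lowered contigs were called, although 160 of the 301 tested lay beyond 1 in log2 fold change. With all fish 2 were lower in MC_9d livers, and without MC_9d_3 there were 39. DN87696_c3_g7_i1 was the only one that was higher, with 84.5, 101 and 299 normalized counts in MC_9d livers, against 17.6, 14.3 and 6.04 in MC_1d livers and 712 ± 169 in PBS livers (SD, n = 4). Its MC_9d level lay between those of MC_1d and PBS livers, and the log2 fold change was 3.66 (SE 0.77, adjusted p = 0.00594). DN83228_c13_g1_i1 was lower, with 0.655, 0 and 2.96 normalized counts in MC_9d livers, against 36.3, 56.2 and 29.0 in MC_1d livers and 558 ± 89.4 in PBS livers (SD, n = 4), a log2 fold change of -4.94 (SE 1.17, adjusted p = 0.0142). The MC_9d value rests on 6 reads. DN133331_c0_g1_i3 had 3 reads over the 3 MC_9d livers and 57 over the MC_1d livers, which scaled by the size factors is 30.5 times as many on day 1 (95% exact interval for counting error only, 9.92 to 152). It was called at an adjusted p of 0.0478, and only 1 of the 6 fits without a fish kept the call. Low counts limit the lowered class, since 22 of its contigs had no read in any MC_9d liver, 39 had none in any MC_1d liver and 12 had none in either, and for these 12 a difference between the days was not detectable at this depth. Of the 37 that had no read on 1 of the days only, 13 could be tested, of which edgeR called 0 (7 at an unadjusted p under 0.05) and DESeq2 called 0.

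Another 4 contigs lay above PBS on one day and below it on the other, which fixes the sign of their difference between the days. DN96591_c6_g6_i1 had 0, 0 and 1.18 normalized counts in MC_9d livers, against 203, 657 and 185 in MC_1d livers and 6.29 to 33.2 in PBS livers. The MC_9d value rests on 2 reads, against 1133 in MC_1d livers, and the ratio scaled by the size factors was 909 times as many on day 1 (95% exact interval for counting error only, 251 to 7515). DN82588_c5_g5_i5 had 9.82, 8.26 and 13.0 normalized counts in MC_9d livers, against 380, 563 and 177 in MC_1d livers and 39.2 to 123 in PBS livers. DN111098_c2_g6_i1 had 253, 193 and 156 normalized counts in MC_9d livers, against 1655, 1343 and 3460 in MC_1d livers and 405 to 739 in PBS livers. In these 3 contigs every MC_1d liver lay above, and every MC_9d liver below, every PBS liver. DN95901_c0_g4_i1 went the other way, with 836, 926 and 1848 normalized counts in MC_9d livers, against 10.4, 24.3 and 9.66 in MC_1d livers and 85.0 to 359 in PBS livers. Here every MC_9d liver lay above, and every MC_1d liver below, every PBS liver. All 4 had an adjusted p under 0.05 with all fish and without each fish in turn. Each was listed because these same fish differed from PBS on both days, so selection had already set the groups apart. These calls are therefore no separate evidence. The log2 fold change was -9.42 (SE 1.11) for DN96591_c6_g6_i1, -5.16 (SE 0.73) for DN82588_c5_g5_i5, -3.42 (SE 0.70) for DN111098_c2_g6_i1 and 6.32 (SE 0.80) for DN95901_c0_g4_i1.

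The 3 contigs named for the smallest change between the days were raised contigs. DN80667_c1_g1_i5 had 2436, 1792 and 1446 normalized counts in MC_9d livers, against 1648, 1825 and 2295 in MC_1d livers and 357 to 767 in PBS livers, with a log2 fold change of -0.02 (SE 0.63). DN80414_c8_g1_i6 had no read in any PBS liver and had 453, 1212 and 84.0 normalized counts in MC_9d livers, against 376, 226 and 1215 in MC_1d livers, with a log2 fold change of -0.05 (SE 0.84). DN104304_c0_g2_i12 had 143, 299 and 91.7 normalized counts in MC_9d livers, against 142, 83.0 and 288 in MC_1d livers, with a log2 fold change of 0.06 (SE 0.66). In all 3 the fish of a day differed among themselves by more than the days did, and the SEs leave room for changes in either direction. Of the other abundant contigs, DN80306_c0_g1_i1 had 9864, 13466 and 12795 normalized counts in MC_9d livers, against 2062, 1498 and 4456 in MC_1d livers. The groups did not overlap, but the log2 fold change of 2.17 (SE 0.78) did not pass the test (adjusted p = 0.13). DN105122_c5_g1_i18 had 6363, 3019 and 2534 normalized counts in MC_9d livers, against 1456, 874 and 3009 in MC_1d livers, and its log2 fold change of 1.16 (SE 0.73) did not pass either (adjusted p = 0.45). DN112552_c6_g5_i1 had the widest spread among MC_1d livers, 36.5-fold, with 30.1, 45.1 and 28.4 normalized counts in MC_9d livers, against 220, 11.7 and 428 in MC_1d livers, and a log2 fold change of -2.67 (SE 0.89, adjusted p = 0.0947).

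The livers of day 6, before the second dose, were set beside those of days 1 and 9. Of the 483 contigs, 457 were also listed on day 6, and 411 of them were tested in a fit of the 9 MC-LR livers of the 3 days, where both later days are set against the same MC_1d fish. Against MC_1d, 29 contigs were higher (7.06%) and 44 lower (10.7%) in MC_6d livers, and 20 were higher (4.87%) and 16 lower (3.89%) in MC_9d livers. Lowered contigs made up 296 of the 411 tested and raised ones 114. Of the 44 that were lower in MC_6d livers, 38 were lowered contigs and 5 were raised ones, while 3 lowered contigs were lower in MC_9d livers. These counts rest on single livers and their difference was not tested: without MC_9d_3, 64 lowered contigs were lower in MC_6d and 35 in MC_9d livers than in MC_1d livers, and over the fits without 1 fish the counts were 15 to 64 and 0 to 35. MC_9d against MC_6d gave 0 calls in either direction in edgeR, with 67 contigs at an unadjusted p under 0.05, and DESeq2 called 9 (2.19%). The median log2 fold change of the lowered contigs tested was -1.70 for MC_6d over MC_1d and 1.35 for MC_9d over MC_6d, and that of the raised contigs was 0.84 and -0.73, beside -0.95 and 0.75 for all contigs tested. Those of the lowered contigs compare values near 0. Over the 342 lowered contigs listed on all 3 days, the median per liver was 0 to 6.71 normalized counts in MC_1d, 0 to 1.54 in MC_6d and 1.27 to 7.69 in MC_9d. In MC_6d livers 146 to 174 of the 342 had no read.

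For the raised contigs that were higher in MC_9d than in MC_1d livers, the median of the group means was 14.6 normalized counts in PBS, 116 in MC_1d, 2395 in MC_6d and 1170 in MC_9d livers. Those that were lower had medians of 0.936 normalized counts in PBS, 949 in MC_1d, 106 in MC_6d and 78.3 in MC_9d livers. DN111751_c3_g4_i1 had 4709, 7798 and 5098 normalized counts in MC_6d livers, and its log2 fold change was 5.89 (SE 0.78) for MC_6d over MC_1d and -0.70 (SE 0.63) for MC_9d over MC_6d. DN93767_c4_g1_i2 had 74.6, 61.2 and 40.5 normalized counts in MC_6d livers, with log2 fold changes of -4.65 (SE 0.63) and 0.41 (SE 0.54). In both contigs the level of day 6 was on the side of day 9. These contigs, like those behind the medians, were called for their MC_9d and MC_1d values. MC_6d was set against the same MC_1d fish, so this choice favours a day 6 level on the side of day 9. Not every called contig passed the test at day 6. Of the 9 raised contigs that were lower in MC_9d livers, 4 did not pass for MC_6d over MC_1d. These were DN95807_c3_g2_i1, with log2 fold changes of -1.91 for MC_6d over MC_1d (adjusted p = 0.0598) and -1.75 for MC_9d over MC_6d, DN95807_c3_g3_i3 with -1.15 (adjusted p = 0.193) and -1.18, DN95807_c3_g4_i2 with -1.14 (adjusted p = 0.178) and -1.64, and DN83112_c5_g1_i5 with -1.87 (adjusted p = 0.103) and -1.65. Of the 14 that were higher, DN87985_c8_g1_i9 did not pass, with 1.66 (adjusted p = 0.0637) and 1.12. DN105122_c5_g1_i18, which was not called between MC_9d and MC_1d livers, had 16146, 23831 and 17989 normalized counts in MC_6d livers, above every MC_9d liver, with log2 fold changes of 3.44 (SE 0.78, adjusted p = 0.00365) for MC_6d over MC_1d and -2.28 (SE 0.74, adjusted p = 0.18) for MC_9d over MC_6d. DN83228_c13_g1_i1 had no read in any MC_6d liver.

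**Figure D4:**
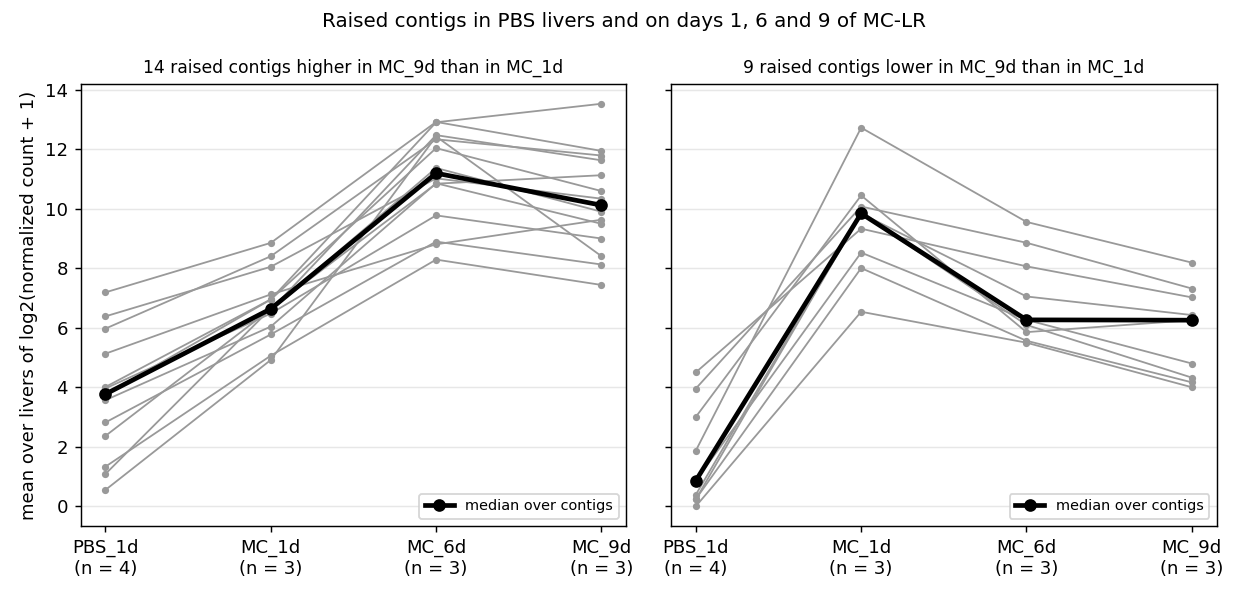
Raised contigs that were higher (left, 14) or lower (right, 9) in MC_9d than in MC_1d livers, as the mean over livers of log2 of the normalized count plus 1 in PBS_1d (n = 4) and in MC_1d, MC_6d and MC_9d livers (n = 3 each). Grey lines are contigs and the black line is their median. The median of the higher contigs stands above day 1 on days 6 and 9, and that of the lower contigs stands highest on day 1. The contigs were chosen by the MC_9d and MC_1d values shown.

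The number of contigs that differed rested on single livers. Without MC_9d_3 there were 23 contigs higher and 52 lower, 39 of them lowered contigs, and without MC_1d_1 there were 2 higher and 7 lower. Without MC_1d_2 there were 5 higher and 11 lower, and without any of the other 3 livers there were 13 to 18 higher and 12 to 16 lower. Of the 30 calls, 9 held without each of the 6 fish in turn: the 4 contigs on opposite sides of PBS, 4 raised contigs that were lower and 1 raised contig that was higher. The 4 on opposite sides of PBS were set apart by their selection, so their calls are no separate evidence. DESeq2, run on the same fish and size factors, called all 30 among its 41 (9.67% of those tested). With clean reads as scaling 24 of the 30 were called, and with the replicate block 22. At an adjusted p under 0.001 with log2 fold changes larger than 2 in size, edgeR left 2 contigs higher and 2 lower. These were 0.943% of those tested. Only DN111751_c3_g4_i1, which was higher, was a raised contig. The others, DN95901_c0_g4_i1, DN82588_c5_g5_i5 and DN96591_c6_g6_i1, lay on opposite sides of PBS, so their calls are no separate evidence.

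**Figure D5:**
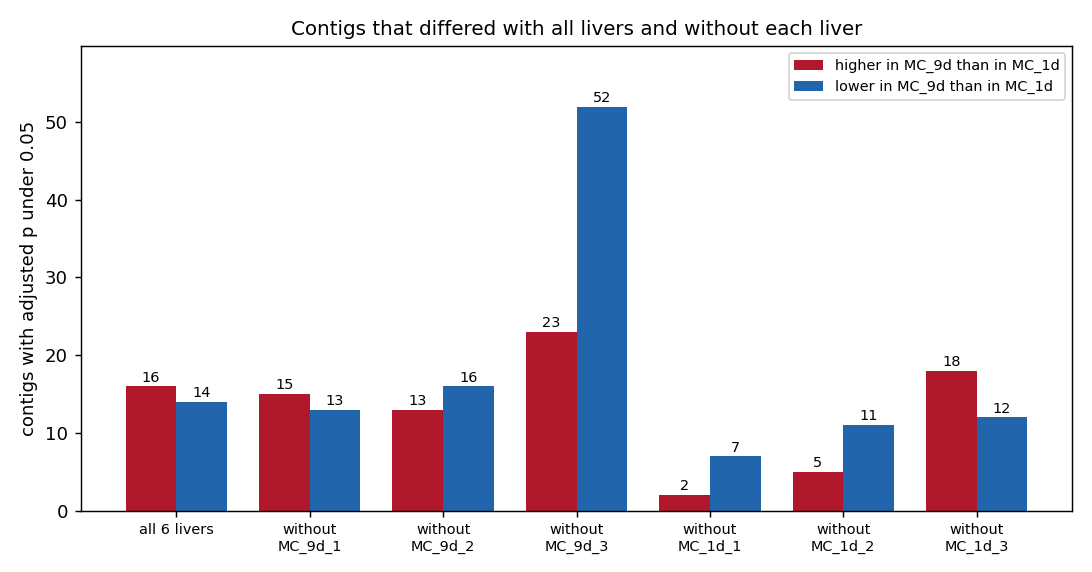
Number of contigs with an adjusted p under 0.05 that were higher or lower in MC_9d than in MC_1d livers, with all 6 livers and without each liver. With all livers the counts are 16 and 14, without MC_9d_3 they are 23 and 52, and without MC_1d_1 they are 2 and 7.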

How the data were processed

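Reads of polyadenylated liver RNA were trimmed by the authors with Trimmomatic 0.36 and assembled de novo with Trinity, contigs of low abundance were removed with RSEM, and the reads of each putative lncRNA contig were counted in each fish with samtools idxstats. The authors deposited these raw counts, unnormalized, for the contigs that DESeq2 1.28.0 listed on each day. The deposited signal column, baseMean, is the mean over 7 fish of counts divided by DESeq2's size factors. Columns of log2 fold changes, their errors, test statistics and p-values hold the authors' own comparisons with PBS and were not used, and 0 columns belonged to other samples.

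Size factors were solved from the base means and the tables were joined through the PBS fish, whose size factors in the day 9 table were 0.812 times those of day 1. Contigs with at least 10 reads over the 6 fish were fitted with edgeR 4.0.16 (R 4.3.3), the solved size factors serving as library sizes. The SE is the log2 fold change over the square root of F. Exact tests used SciPy 1.17.1. Alternatives were other scalings, filters, DESeq2 1.42.0, a robust fit, PBS fish in the fit, a replicate block, each fish left out and the study's thresholds. The fits were run on simulated counts with known changes and known size factors. The simulation held no selection against PBS and no doubt about scaling, so it does not bear on these limits of the calls. The deposited lists hold only contigs that the authors called against PBS, so other contigs were not analysed here and adjustment covers the fitted contigs alone.

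Named contigs are the up to 4 calls with the smallest adjusted p and no overlap per class and direction, the 5 most abundant, all on opposite sides of PBS, the 3 with the smallest change and the widest on each day with a mean of at least 100 normalized counts. The comparison, members and rules were chosen with earlier results of these data known. The IDs matched 0 names in the gene table used, and no contig sequence was used here.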

Additional observations from a re-analysis of the deposited data

Results flagged for a closer look

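In 7 cases a value stood out. A set of 4 contigs moved to opposite sides of PBS on the days compared, with every MC_9d liver on one side of every MC_1d liver, and the difference between the days was tested with edgeR: the log2 fold changes, MC_9d over MC_1d, were -3.42 for DN111098_c2_g6_i1, -5.16 for DN82588_c5_g5_i5, -9.42 for DN96591_c6_g6_i1, whose MC_9d level rests on 2 reads, and 6.32 for DN95901_c0_g4_i1. Their class fixes the sign and favours a wide difference, so the test is no separate evidence.

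In 3 named contigs 1 PBS liver stood apart from the other 3, all at 0: 0.899 normalized counts in DN91051_c3_g1_i1, 0.976 in DN95807_c3_g1_i1 and 3.60 in DN92637_c2_g3_i1. The 23 named contigs were looked at in this way. The rule is set to mark about 1 in 20 groups by chance, but this rate does not hold here. With the other 3 livers at 0, any read in the fourth is marked. With 1 read or a few reads in the liver that stands apart, these values bear on no comparison of the MC-LR livers.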

How the results depend on the processing

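Counts below are contigs of MC_9d against MC_1d unless other days are named, 16 higher and 14 lower in the fit described (14 and 9 raised, 1 and 2 lowered). With clean reads as scaling there were 29 higher and 8 lower, 27 and 5 of the raised contigs and 0 lowered contigs lower, the median of the raised contigs was 0.93 in log2, 28 contigs were lower in MC_6d than in MC_1d livers and 3 were higher in MC_9d than in MC_6d livers. This scaling moved the median of all tested contigs by 0.86 in log2 and that of TMM by 0.17. Under the study's thresholds there were 2 higher and 2 lower, 1 raised contig higher and 0 lower, 0 lowered contigs in either direction, and 9 higher and 5 lower in MC_6d than in MC_1d livers. Lowered contigs that were lower numbered 1 with TMM, median of ratios or a robust fit, 4 with no filter on low counts or DESeq2, and 5 with the PBS fish in the fit, which called 4 lowered contigs higher. MC_9d against MC_6d, with 0 in the fit described, gave 5 higher and 1 lower with no filter, 5 and 4 with DESeq2, and 1 and 1 with a robust fit.

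Fits without 1 fish gave 2 to 23 higher and 7 to 52 lower, 1 to 21 raised contigs higher and 4 to 11 lower, 0 to 1 lowered contigs higher and 0 to 39 lower, and medians of -0.15 to 0.66 for raised and -1.001 to 0.35 for lowered contigs. For MC_6d against MC_1d they gave 21 to 44 higher and 19 to 75 lower, and for MC_9d against MC_6d 0 to 5 higher and 0 to 1 lower. In these fits a group with 2 fish was assumed to vary like the whole. Replicate numbers were shared between groups but did not pair the fish. Deviations of fish with the same number correlated at -0.05, -0.32 and -0.41, and no fish correlated best with its own number. The replicate block gave 12 higher and 15 lower, 4 of them lowered contigs lower. Leaving out PBS fish from the join changed no count. Of 437 values of named contigs under the alternatives, 408 kept their side of the threshold and 0 changed sign with a call.

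Precision is limited by 3 fish per group and by low counts of lowered contigs. The fit used contigs already selected against PBS in these fish, which can make the spread and the adjusted p of every call too small.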
